A study of Mus musculus with 4 samples.

Results

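Thrombospondins and tenascins are 2 families of large secreted glycoproteins of the extracellular matrix. The genes described here were chosen by name, as the rows of the deposited RNA count table named Thbs1, Thbs2, Thbs3, Thbs4, Comp, Tnc, Tnxb, Tnn or Tnr. Of these 9 names, 8 had a row among the 23537 genes of the table, 4 thrombospondins and 4 tenascins. Thbs4 had no row, so its expression was not analysed here. The table came from mouse embryonic fibroblasts (MEFs, the mesenchymal cells that grow out of a dissociated embryo) of 2 genotypes, Mbd4-/- (KO, 2 libraries) and Mbd4+/+ (WT, 2 libraries). All 4 libraries were made from total RNA of subconfluent primary cultures of the C57BL/6 strain, from embryos taken at day 12.5 of gestation, with no treatment named. MBD4 is a DNA glycosylase that binds methylated CpG sites and removes the thymine or uracil left when a cytosine is deaminated. The comparison of KO with WT asks which transcripts change in cells that lack the enzyme, and here which of these matrix genes do.

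Both families belong to the matricellular proteins, which sit in the matrix but act mainly by binding cell surface receptors, proteases and growth factors rather than by bearing load. Thbs1 and Thbs2 form trimers, carry thrombospondin type 1 repeats that bind CD36, and limit the growth of blood vessels. Thbs1 also activates latent TGF-β, whereas Thbs2 lacks the short motif for it. Thbs3, Thbs4 and Comp form pentamers without type 1 repeats, and Comp is a structural protein of cartilage and tendon. Tnc is made by embryonic mesenchyme and in wounds and tumour stroma, Tnn (also called tenascin-W) around developing bone, Tnr mainly in the nervous system, and Tnxb in loose connective tissue, where it binds collagen fibrils. Fibroblasts in culture typically make much Thbs1 and Tnc, and both genes respond to serum, TGF-β and mechanical tension.

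The libraries held 39108275 to 47567835 counts. For Mbd4 itself the KO libraries gave 373 and 302 counts and those of WT 663 and 630. It fell by 0.99 on the log2 scale (SE 0.11, adjusted p = 2.8e-06 by the quasi-likelihood test of edgeR, with p-values adjusted by Benjamini and Hochberg's method for 15538 genes). The KO cells thus still gave reads from the gene, and gene totals do not show which exons these cover. Of the 12 markers of fibroblasts and mesenchyme, all tested, 2 were higher, 6 lower and 4 not called in KO. Their summed level ran from 10132.5 to 10869.3 CPM (CPM, each count divided by the TMM-scaled library size) in KO and from 15335.1 to 16965.7 CPM in WT. Vim and Col1a2 were abundant in every library, though lower in KO by 0.59 and 0.36 on the log2 scale. Dcn had 5 and 7 counts in KO and 1349 and 1123 in WT, and Lum 0 and 1 against 142 and 131. The 2 higher were Prrx1, which rose by 1.92, and Fap, at 12 counts or fewer in every library. Pdgfra, Pdgfrb, Thy1 and Twist1 were not called. The methods speak of 2 samples purified independently for each genotype, but not of whether they came from separate embryos or cultures. The p-values therefore measure only the spread between these libraries, which may be technical, and a difference between the 2 sets of cells other than Mbd4 cannot be told apart from one due to it. In bulk RNA, fewer cells of a type and less RNA per cell cannot be told apart either.

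All 8 genes passed the filter on low counts, and 7 of them differed between KO and WT at an adjusted p under 0.05, 5 higher in KO and 2 lower. For each of these 7 the KO libraries both lay above, or both below, the pair of WT libraries. These counts have to be read against a transcriptome that differed widely. Of all genes tested, 66.8% were called, 34.3% as higher and 32.5% as lower in KO, and the 2 genotypes did not overlap for 82.8%. At a stricter limit, an adjusted p under 0.01 with an absolute log2 fold change over 2, the count was 3 of 8 (Thbs2, Tnc and Tnr), beside 8.94% of all genes. The median absolute log2 fold change was 1.79 over the 8 genes and 0.47 over all genes tested, and the signed medians were 1.03 and 0.024. The genes were chosen with earlier results of these data known, so these contrasts do not test the families. Tnr and Tnxb had WT libraries with fewer than 10 counts, so they needed their KO counts to enter the test. Over the 6 genes with at least 10 counts in every library, 5 were called, 3 higher and 2 lower, and the signed median was 0.24 and the absolute one 1.51. A fit limited to genes with that many counts left 2 of these 6 past the stricter limit, Thbs2 and Tnc.

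**Figure D1:**
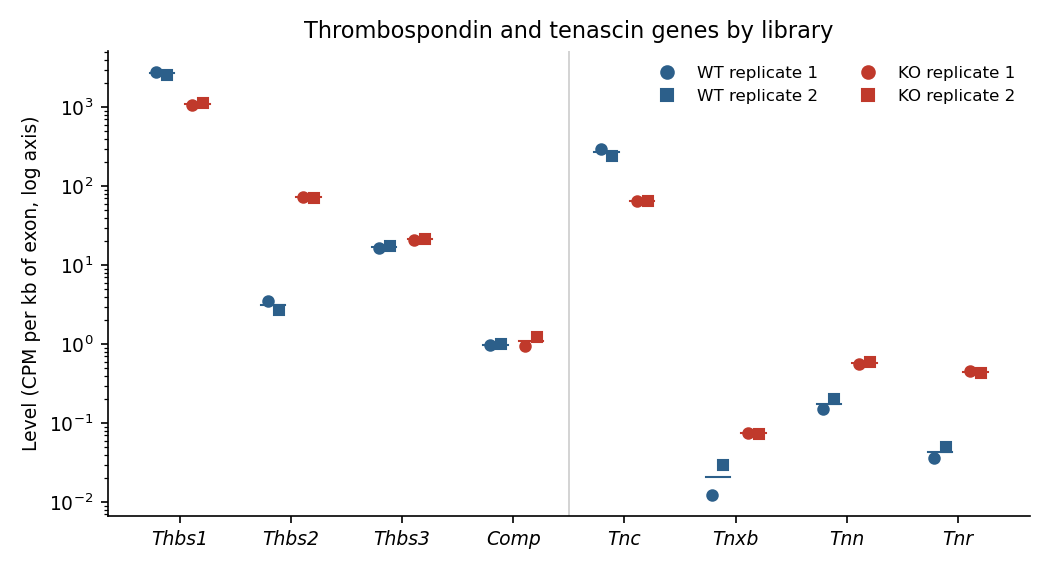
Level of each gene in each library, in CPM per kilobase of annotated exon on a log axis, with WT in blue, KO in red, replicate 1 as circles, replicate 2 as squares and the group mean as a short line. Thbs1 was the highest in every library, at 1077.0 to 2803.4, and Thbs2 went from 2.7 and 3.57 in WT to 71.9 and 72.5 in KO.

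The sequences before the start sites are shown for the 3 genes past the stricter limit, and for Tnn, which lies near Tnr on chromosome 1 and rose with it. Each is the 250 bases upstream of the start in RefSeq (assembly GRCm38.p6), 5′ to 3′ on the strand of the gene, with CpG sites, the target of the methylation that MBD4 binds, in capitals. Thbs2 is at chr17:14694263-14694512 (minus strand), Tnc at chr4:64047016-64047265 (minus strand, the more upstream of 2 starts), Tnn at chr1:160153576-160153825 (minus strand) and Tnr at chr1:159523519-159523768 (plus strand).
Thbs2: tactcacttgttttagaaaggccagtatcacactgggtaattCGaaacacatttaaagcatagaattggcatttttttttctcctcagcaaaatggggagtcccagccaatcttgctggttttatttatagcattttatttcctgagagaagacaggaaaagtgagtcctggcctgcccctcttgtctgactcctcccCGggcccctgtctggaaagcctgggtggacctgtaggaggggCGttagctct
Tnc: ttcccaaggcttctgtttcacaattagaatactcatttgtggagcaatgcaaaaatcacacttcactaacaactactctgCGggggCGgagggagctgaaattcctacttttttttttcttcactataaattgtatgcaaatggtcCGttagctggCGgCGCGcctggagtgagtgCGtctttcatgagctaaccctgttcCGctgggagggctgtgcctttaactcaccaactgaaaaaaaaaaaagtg
Tnn: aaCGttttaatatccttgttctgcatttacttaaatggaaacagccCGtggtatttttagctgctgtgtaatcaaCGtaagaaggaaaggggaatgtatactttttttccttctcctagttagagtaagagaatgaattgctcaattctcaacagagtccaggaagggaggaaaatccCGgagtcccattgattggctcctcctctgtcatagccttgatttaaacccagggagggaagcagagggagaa
Tnr: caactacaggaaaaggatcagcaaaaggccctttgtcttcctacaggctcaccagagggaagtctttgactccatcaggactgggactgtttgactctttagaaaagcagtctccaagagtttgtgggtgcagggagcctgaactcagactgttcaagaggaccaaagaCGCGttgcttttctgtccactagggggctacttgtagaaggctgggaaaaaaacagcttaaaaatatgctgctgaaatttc

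The CpG content of these windows varied. Thbs2 had 3 CpG sites, Tnn 4 and Tnr 2, below the median of 6 over the 32536 distinct promoter windows of the same length, while Tnc had 8, and 10 at its second start. Of the genes not shown, Tnxb had 4, Thbs3 6 and Thbs4 19. The table of promoters held 7 of the 9 names, without Thbs1 and Comp. TATAAA, the core of a TATA box, was found on either strand in the Thbs2 and Tnc windows and in 12.3% of all windows. GGAATG, the core that TEAD factors bind, occurred in the Tnn and Thbs4 windows and in 12.6% of all, and TGANTCA, the AP-1 core, in Tnxb and in 6.73% of all. GGGCGG, the Sp1 GC box, occurred in Tnc, Thbs3 and Thbs4 and in 33% of all. A match of this kind is a description of the letters and not of a bound site. In mm9, the build of the counts, the windows of the genes with a row matched exactly once on their chromosomes. For Thbs2, Thbs3 and Tnxb they ended at the start of the counted gene. The Tnc window lay 26289 bases, and the Tnr window 213741 bases, upstream of the start of the gene model in the mm9 annotation used here, so that model does not reach the RefSeq start.

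Thbs2 rose more than any other of these genes. It lies on chr17:14802507-14831269 of mm9, on the minus strand, and codes for a trimeric thrombospondin whose loss in mice leaves fragile skin with disordered collagen fibrils. The 2 KO libraries gave 20421 and 17561 counts and the 2 WT libraries 948 and 655, which is 430.0 and 426.0 CPM against 21.2 and 16. Both KO libraries stood far above both WT libraries, and the KO libraries nearly coincided. The log2 fold change was 4.52 (SE 0.10, 95% interval 4.30 to 4.74, adjusted p = 6.0e-13, edgeR), a 23.0-fold rise with an interval of 19.7 to 26.8. Ordered by counts, the gene went from place 7542 and 8253 in the WT libraries to place 267 and 254 in KO.

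Thbs1 moved the other way. The gene (chr2:117937612-117952869, plus strand) codes for the thrombospondin that platelets release and that fibroblasts make in response to serum. The WT libraries gave 762505 and 633980 counts, the most of any gene in both, and the KO libraries 310897 and 281589, which was still the third place. In CPM this was 17025.1 and 15476.0 in WT against 6540.9 and 6831.3 in KO. The groups were well apart, and the 2 WT libraries differed from each other more than the 2 KO libraries did. Thbs1 fell by 1.28 on the log2 scale in KO (SE 0.07, 95% interval -1.44 to -1.12, adjusted p = 4.1e-09, edgeR), so that it was 2.43-fold lower (interval 2.18 to 2.71).

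Of the pentameric thrombospondins, Thbs3 changed little and Comp passed no test. Thbs3 (chr3:89019102-89030759, plus strand), which is found in developing bone and cartilage, had 4809 and 4257 counts in KO and 3611 and 3428 in WT, or 101.0 and 103.0 against 80.6 and 83.7 CPM. The groups did not overlap, and the rise of 0.32 on the log2 scale was the smallest of the 7 called (SE 0.06, adjusted p = 3.8e-04, edgeR). Mtx1, a mitochondrial import gene on the opposite strand, shares 318 bases of exon with it, or 6.59% of the Thbs3 exons. Mtx1 fell by 0.59 (adjusted p = 1.4e-05, edgeR), opposite to Thbs3. Whether the authors' counting used the strand was not given in the sources used here. Comp (chr8:72897447-72905964, plus strand), the cartilage oligomeric matrix protein, had 111 and 123 counts in KO and 105 and 99 in WT. Its CPM of 2.34 and 2.98 in KO overlapped with 2.34 and 2.42 in WT. The log2 fold change was 0.16 with a 95% interval from -0.27 to 0.58 (adjusted p = 0.51, edgeR), and it became -0.03 without KO replicate 2. Of 8 tested cartilage markers 5 were lower in KO, among them Sox9 (log2 fold change -0.98), Col2a1 (-1.93) and Acan (-1.34). The 2 higher were Sox5 (2.16) and Col11a2 (1.78), and 1 was not called. Col9a1, also lower, had 0 counts in both KO libraries and 20 and 18 in WT. It needed its WT counts to enter the test. The cartilage list summed to 154 and 173 CPM in KO and 484 and 445 in WT, and Hapln1 was near 0 in both genotypes, with 1 count in WT replicate 1 and 0 in the other libraries.

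Tnc, the most abundant tenascin, fell. It is a hexameric protein that interferes with cell adhesion to fibronectin, and its gene lies at chr4:63620819-63681760 on the minus strand. It had 99808 and 73777 counts in the WT libraries, places 27 and 36 of all genes, and 22931 and 20290 in the KO libraries, places 209 and 196. The CPM values were 2228.5 and 1801.0 in WT and 482.0 and 492.0 in KO. No KO library came near a WT library, though WT replicate 1 was well above WT replicate 2. Tnc fell by 2.05 on the log2 scale (SE 0.09, 95% interval -2.24 to -1.86, adjusted p = 2.3e-10, edgeR), which is 4.13-fold lower in KO (interval 3.62 to 4.72). The fall lay close to the stricter limit of 2. It was -1.89 without WT replicate 1, -1.99 with upper quartile scaling and -1.90 with library totals. Either of these scalings left 2 genes past that limit. A noncoding gene on the opposite strand, 8030451A03Rik, shares 176 exon bases with Tnc but had only 0 and 1 counts in KO and 9 and 5 in WT.

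The 3 other tenascins were scarce in WT and higher in KO. Tnr (chr1:161667641-161855053, plus strand), a tenascin of oligodendrocytes and of the nets around neurons, had 108 and 87 counts in KO and 8 and 10 in WT. All 4 values were low, but the KO values were clearly the higher. The log2 fold change was 3.37 (SE 0.31, 95% interval 2.69 to 4.04, adjusted p = 5.1e-07, edgeR), a 10.3-fold rise. Of the markers of neurons, 2 were tested, and both rose in KO, Syt1 by 5.87 and Stmn2 by 3.38 on the log2 scale. Syt1, with 2 and 3 counts in WT and 168 and 149 in KO, needed its KO counts to enter the test. The 5 neuronal markers with a row summed to 30.5 and 27.4 CPM in KO and 2.66 and 2.51 in WT, while Snap25, Dcx and Nefl had 6 counts or fewer in every library. Among glial markers Mbp rose by 1.24 and Gfap fell by 1.23. The part of neurons or glia in the Tnr result was not tested.

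Tnn lies 160111 bases from Tnr (chr1:162015165-162083711, minus strand) and had 157 and 144 counts in KO and 39 and 48 in WT. Both KO libraries were above both WT libraries. It rose by 1.74 on the log2 scale (SE 0.22, 95% interval 1.27 to 2.21, adjusted p = 9.3e-06, edgeR). The bone markers, of which 3 were tested and 3 were higher (Runx2 by 0.37, Alpl by 1.06 and Dmp1 by 2.53), summed to 17.8 and 20.2 CPM in KO and 13.4 and 14.3 in WT, with Bglap at 2 counts or fewer. Dmp1, with 4 and 3 counts in WT and 21 and 22 in KO, needed its KO counts to enter the test. The part of bone-forming cells in the Tnn result was not tested. Tnxb (chr17:34807480-34856760, plus strand), whose human counterpart is mutated in a form of Ehlers-Danlos syndrome, had 45 and 38 counts in KO and 7 and 15 in WT. The WT libraries differed widely at these counts but stayed below the KO libraries. Tnxb rose by 1.85 (SE 0.40, 95% interval 0.98 to 2.72, adjusted p = 0.0011, edgeR), and the value was 1.34 without WT replicate 1 and 2.52 without WT replicate 2. Tnr and Tnxb left the test when at least 10 counts were required in every library.

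**Figure D2:**
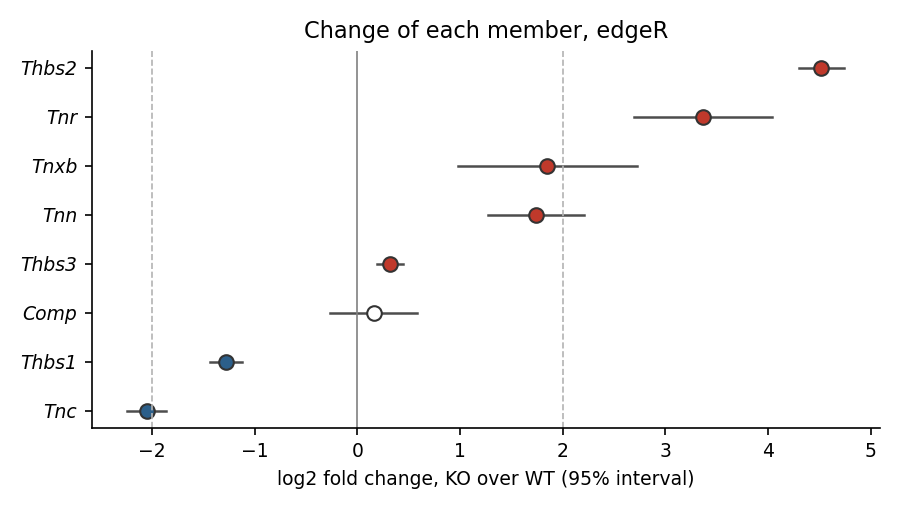
Log2 fold change of each gene, KO over WT, with its 95% interval, ordered by size. Red circles mark genes called higher in KO, blue circles genes called lower and the white circle Comp, which was not called; dashed lines mark the stricter limit of 2 in either direction, and only the intervals of Thbs2 and Tnr lie wholly beyond it.

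Between genes, levels were compared per kilobase of annotated exon. In WT the order was Thbs1, Tnc, Thbs3, Thbs2, Comp, Tnn, Tnr and Tnxb, from 2675.9 ± 180.0 for Thbs1 and 268.0 ± 40.3 for Tnc down to 0.0427 ± 0.00936 for Tnr and 0.0208 ± 0.0118 for Tnxb (CPM per kb, mean ± SD, n = 2). In KO it was Thbs1, Thbs2, Tnc, Thbs3, Comp, Tnn, Tnr and Tnxb, with Thbs1 at 1101.0 ± 33.8, Thbs2 at 72.2 ± 0.43 and Tnc at 64.9 ± 0.922. Thbs2 thus moved from the fourth place to the second. No 2 neighbours in either order overlapped between libraries. The closest in KO were Thbs2 and Tnc, and Tnn (0.567 and 0.6) with Tnr (0.459 and 0.426), and their order depends on the exon lengths taken from the annotation.

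Ratios of 2 genes within a library do not depend on how the libraries were scaled. Per kilobase, Thbs1 was 785 and 945 times as high as Thbs2 in the WT libraries and 14.9 and 15.6 times in the KO libraries. Tnc was 83.1 and 88.9 times as high as Thbs2 in WT, and slightly below it in KO, at 0.886 and 0.912. Thbs3, the steadiest of the called genes, was 4.68 and 6.43 times Thbs2 in WT and 0.289 and 0.298 times in KO. Thbs1 and Tnc, which both fell, also changed unequally, with a ratio of 9.45 and 10.6 in WT and 16.8 and 17.2 in KO. None of the 7 ratios computed overlapped between genotypes, and for each the exact two-sided permutation p was 0.33, the smallest that 2 against 2 libraries can give. All of them pair genes that were called, and the genotypes did not overlap for 82.8% of all single genes tested.

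**Figure D3:**
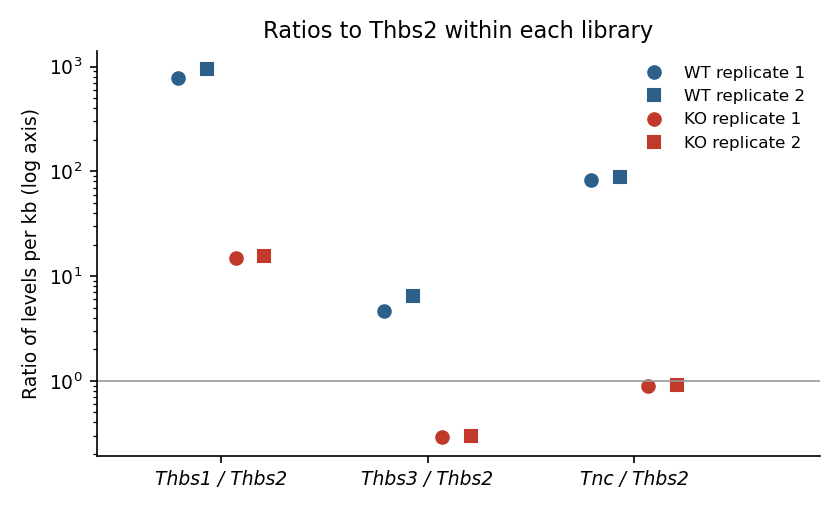
Ratio of Thbs1, Thbs3 and Tnc to Thbs2 within each library, from levels per kilobase, on a log axis with WT in blue and KO in red. The Thbs1 ratio was 785 and 945 in WT and 14.9 and 15.6 in KO, and the Tnc ratio crossed the line at 1.

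Within the thrombospondin family the sum of the 4 genes was 2824.7 and 2569.4 CPM per kb in WT and 1171.5 and 1219.4 in KO. Thbs1 made up 99.2% of it in both WT libraries and 91.9% and 92.2% in KO. Thbs2 went from 0.126% and 0.105% to 6.19% and 5.89%, and Thbs3 from 0.592% and 0.675% to 1.79% and 1.76%. In absolute terms the rise of Thbs2, from a mean of 3.13 to 72.2 CPM per kb, was small beside the fall of Thbs1 from 2675.9 to 1101.0. The tenascin sum was 297.0 and 240.0 in WT and 65.4 and 66.7 in KO. Tnc made up 99.9% of it in WT and 98.3% in KO, with Tnn at 0.868% and 0.9% and Tnr at 0.703% and 0.64% in KO. In both families the most abundant gene stayed the same, and the total followed its fall.

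The receptors and partners of the 2 families were described by lists chosen for their known roles. Of 17 tested receptors and partners of thrombospondins, 4 were higher and 10 lower in KO, with a median log2 fold change of -0.79. The shares over all genes tested were 34.3% higher and 32.5% lower. The largest fall was that of Vldlr, a lipoprotein receptor family member that binds thrombospondins and reelin, from 63.5 ± 1.87 to 3.27 ± 0.133 CPM (-4.28, adjusted p = 4.3e-13, edgeR). Itga6, an integrin subunit for laminin, followed with -1.85 and Tgfb1, the growth factor that Thbs1 activates, with -1.54. Itgb1, the most abundant of the list and the β subunit of many integrins, fell by 1.18. The largest rises were those of Sirpa, a ligand of CD47 (1.11), Stim1, a calcium sensor (0.65), and Cacna2d1, the α2δ receptor of thrombospondins in neurons (0.59). Itga6 and Cacna2d1 overlap other annotated genes on the opposite strand, and Itga6 also on its own. Cd36 had 1 count in all libraries together.

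Of 17 tested receptors and partners of tenascins, 4 were higher and 9 lower, beside 34.3% and 32.5% of all genes. The median was -0.28. Itgb1, Itgb3 and Itgav stand in both lists, so the lists are not separate evidence. Itgb6, the β subunit of an epithelial integrin that binds tenascin-C, fell by 4.10 (adjusted p = 2.7e-07, edgeR) from 1.98 ± 0.139 CPM to 0.112 ± 0.0206. The collagen receptor subunit Itga2 fell by 1.42. Fn1, fibronectin, fell from 6163.1 ± 495.0 to 3334.0 ± 270.0 CPM (-0.89, adjusted p = 3.0e-07, edgeR), and it shares exon bases with Apol7d on the opposite strand. Itga9, a tenascin-C receptor subunit, rose by 1.27, Itga7 by 0.97 and Egfr by 0.68, and annotated genes on the opposite strand overlap all of these. Itga7 also shares exon bases with its opposite-strand gene, Mettl7b, and overlaps a U6 gene on its own strand. The epithelial markers, of which 3 of 6 were tested, summed to 28.2 and 28.0 CPM in WT and 3.64 and 3.4 in KO, but the fall was that of Krt19 (-6.53). Cdh1 rose by 3.64 and Epcam was not called (-0.26), and without Krt19 the list summed to 0.737 and 0.757 CPM in WT and 3.39 and 3.06 in KO. The part of epithelial cells in the Itgb6 result was not tested.

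Of 13 other matricellular genes tested, 5 were higher and 8 lower, and 6 passed the stricter limit. Over all genes tested, 34.3% were higher, 32.5% lower and 8.94% past that limit. Sparcl1 rose from 7 and 3 counts in WT to 280 and 262 in KO (5.68, adjusted p = 1.4e-09, edgeR), Spock2 by 2.64 and Smoc2 by 2.54. Sparcl1 needed its KO counts to enter the test. Ctgf, a TGF-β and tension responsive gene of the CCN family, fell by 2.21 (adjusted p = 1.1e-09, edgeR), Wisp2 of the same family by 2.17, and Postn by 1.46. Sparc, the most abundant, fell by 0.41. Sparcl1 and Ctgf share exon bases with genes on the opposite strand. The median of the list was -0.41.

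Genes outside the family that carry type 1 repeats formed the last list. Of 18 tested, 12 were higher, 3 lower and 5 past the stricter limit, beside 34.3%, 32.5% and 8.94% of all genes. The median was 0.66. Adamtsl1 rose from 3.55 ± 0.372 to 94.5 ± 4.77 CPM (4.74, adjusted p = 2.3e-13, edgeR) and Sema5a, an axon guidance semaphorin, from 19.3 ± 2.14 to 239.0 ± 17.2 (3.63, adjusted p = 7.8e-13, edgeR). Thsd4, which binds fibrillin and shares exon bases with another annotated gene of that name, rose by 2.18 and Rspo2, an enhancer of Wnt signalling with the highest mean of the list over all 4 libraries, by 0.95. In WT alone Adamtsl3 was slightly higher, at 261 and 262 CPM against 243 and 259 for Rspo2. Rspo3 of the same family fell by 4.0 and Adamtsl5 by 0.71. Rspo3, with 5 and 10 counts in KO, needed its WT counts to enter the test. Counts of this kind have no test of their own, and the shares of all genes called are the measure beside which they stand.

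**Figure D4:**
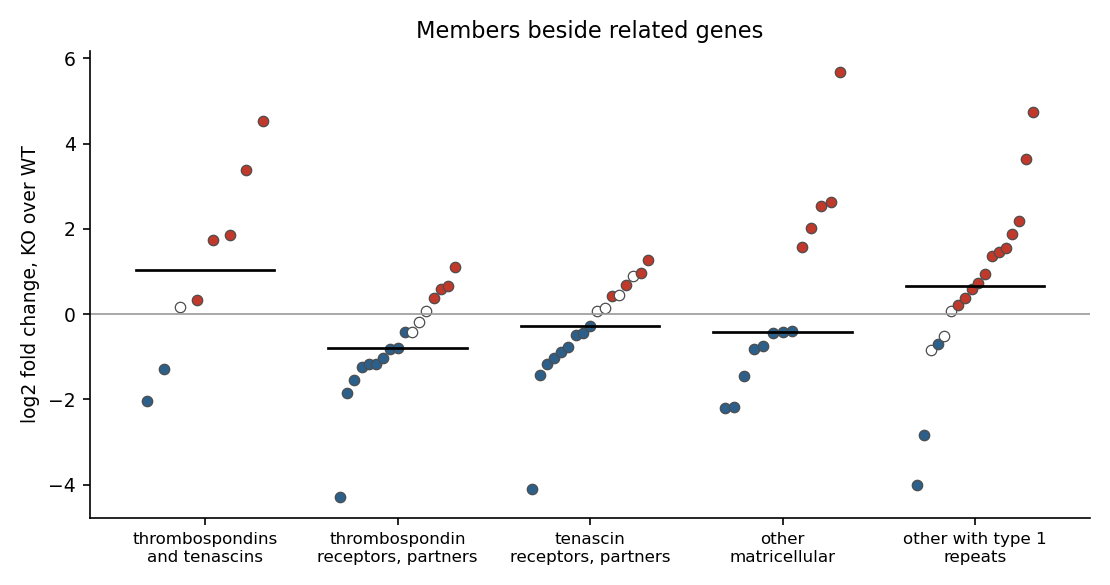
Log2 fold change, KO over WT, of the 8 members and of the tested genes of the 4 related lists, each ordered by size, with red for higher, blue for lower and white for not called, and a black line at the median. The medians were 1.03, -0.79, -0.28, -0.41 and 0.66 from left to right.

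Tendon and smooth muscle markers bear on the same genes, since tendon cells make Comp and Tnc and contractile fibroblasts make Thbs1. Of 5 tested tendon markers, Tnmd rose by 6.37 and Egr1 by 0.53, Scx fell by 1.01, and Mkx and Fmod were not called. Their sum was 307 and 304 CPM in KO and 136 and 116 in WT, but without Tnmd it was 84.2 and 95.5 in KO and 134 and 114 in WT, which is the opposite direction. Of 6 tested smooth muscle markers, Acta2 (-0.52), Cnn1 (-0.67) and Tagln (-0.48) fell as Thbs1 and Tnc did, Myh11 rose by 2.08, and Des and Smtn were not called. That list summed to 4146.0 and 4163.5 CPM in KO and 6293.4 and 5510.6 in WT. The remaining lists were low. Endothelium summed to 0.757 to 1.19 CPM over all libraries with none of 3 tested markers called, blood and macrophages to 3.44 to 6.04 with 1 higher, 1 lower and 1 not called, and skeletal muscle to 1.76 to 2.97 with 1 of 2 tested in each direction. The part of any of these in the results for Thbs1, Thbs2 and Tnc was not tested.

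The genes next to the members on the chromosomes moved in both directions. Among the 3 rows on each side of each member, 27 genes other than members were tested, of which 5 were higher in KO, 13 lower and 9 not called. Over all genes tested, 34.3% were higher and 32.5% lower. Beside Thbs1 the 4 tested neighbours were all lower. The nearest, Gm13986, runs the other way from a start 674 bases from that of Thbs1. It had 189 and 184 counts in KO and 357 and 295 in WT and fell by 0.85 (adjusted p = 1.5e-04, edgeR). Fsip1 on the other side fell by 1.18 (adjusted p = 0.014, edgeR), with 10 to 29 counts a library. It was no longer called with DESeq2 (-1.22), without KO replicate 1 (-1.44) or without KO replicate 2 (-0.98).

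Beside Thbs2 lies Smoc2, itself a matricellular gene, 260709 bases away. It had 20888 and 18000 counts in KO and 3792 and 2695 in WT and rose by 2.54 (adjusted p = 6.2e-11, edgeR). Gm3222 on the other side was not called (-0.07). Between Tnr and Tnn, the noncoding gene 4930523C07Rik rose by 1.01 (adjusted p = 5.1e-08, edgeR). The nearest tested genes on their outer sides, Scarna3a by Tnr (0.39) and Mrps14 by Tnn (0.09), were not called. Without WT replicate 2 the Scarna3a value was 0.92. Further out, Rfwd2 by Tnr was not called (0.01). On the side of Tnn, Cacybp fell by 0.93 and Rabgap1l rose by 0.81. Muc1 by Thbs3 rose by 1.42. Upf1 by Comp fell by 1.04 and Crtc1, 289 bases from Comp, was not called (-0.06). Tnfsf15, the nearest tested gene by Tnc and on 1 side only, fell by 1.45. By Tnxb, C4b was not called (0.18), and Atf6b fell by 0.24 (adjusted p = 0.030, edgeR). Atf6b was not called with upper quartile scaling (-0.18), with library totals (-0.09) or without KO replicate 1 (-0.12).

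**Figure D5:**
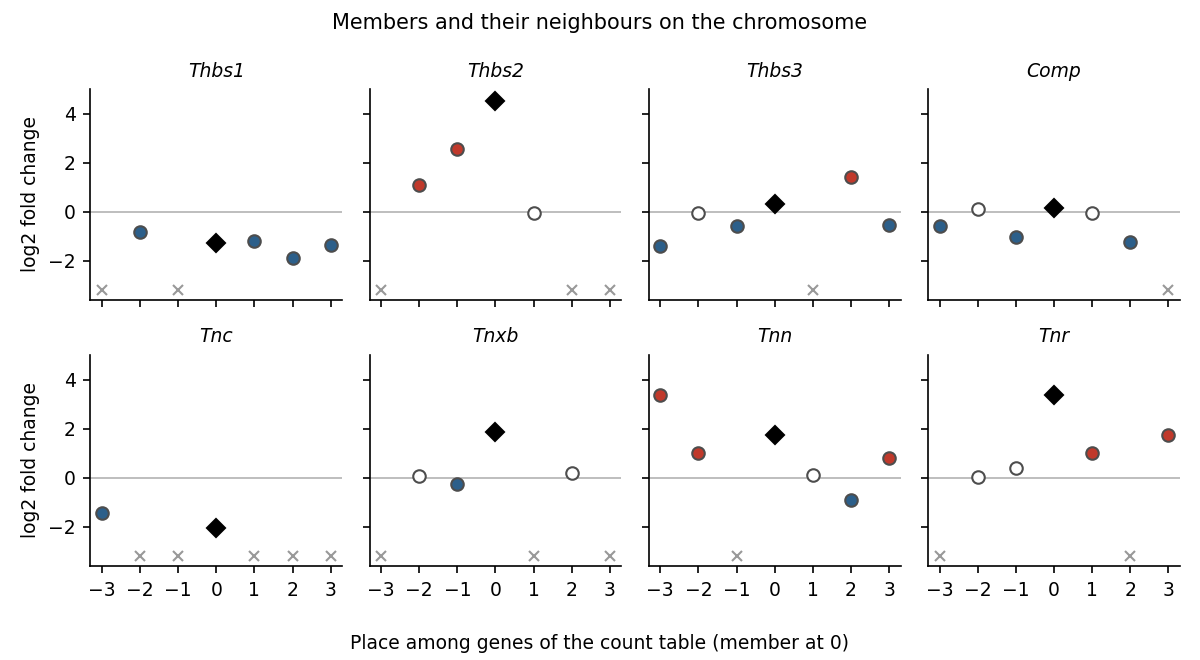
Log2 fold change, KO over WT, of each member (black diamond at place 0) and of the 3 rows of the count table on each side along the chromosome, with red for higher, blue for lower, white for not called and a grey cross for genes not tested. All 4 tested neighbours of Thbs1 were lower, beside 32.5% of all genes tested, and Smoc2, at place -1 beside Thbs2, rose by 2.54.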

How the data were processed

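RNA of 2 KO and 2 WT MEF libraries was sequenced after removal of ribosomal RNA with a kit that keeps the strand. Per the methods and the submitters' processing notes, the authors converted reads with CASAVA 1.8.2, aligned them to mm9 with TopHat2 and Bowtie, and obtained counts per gene from HTSeq 0.5.4p3. The deposited table holds raw counts per gene (4 columns used), and also normalized counts and the values of the authors' own DESeq comparison (8 columns), none of which were used. HTSeq's strand setting was not stated in these sources.

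The 4 count columns were matched to samples by their titles. Genes passing filterByExpr (15538 of 23537) were fitted in edgeR 4.0.16 (R 4.3.3) with TMM factors, quasi-likelihood F-tests on genotype alone, and p-values adjusted by Benjamini-Hochberg. The standard error is the absolute log2 fold change over the square root of F. The libraries held 39108275 to 47567835 counts. CPM used TMM library sizes, and levels per kilobase the exon union of GENCODE vM1 (NCBIM37, the same build as mm9), which holds 23393 of the identifiers. Thbs4 had no row by symbol or identifier. Promoter sequences are from RefSeq (GRCm38.p6). The fit was also run on simulated counts in which only a small part of the genes changed. In the data 66.8% of genes were called, so that run does not show how the fit behaves under so wide a change.

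The members and lists were chosen with earlier results of these data known. All members were named, and from each related list up to 3 of the largest rises and 3 of the largest falls among genes past an adjusted p of 0.05 with a mean of at least 1 CPM, and the gene with the highest mean CPM. Of the neighbours, the nearest tested gene on each side and genes overlapping a member were named. Smoc2 falls under both rules. One marker is not reported here. Adamtsl3, the markers named singly, and Rfwd2, Cacybp and Rabgap1l among the neighbours were chosen after their values were seen. The alternatives were other scalings, other filters, DESeq2 1.42.0, limma-voom (limma 3.58.1), a replicate block, an adjusted p of 0.01, and leaving out each library.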

Additional observations from a re-analysis of the deposited data

How the results depend on the processing

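Of the 94 log2 fold changes of the 8 genes under alternative settings, 93 kept their direction and their side of the threshold. Comp was the exception. With each library left out in turn it ranged from -0.03 (without KO replicate 2, adjusted p = 0.94, edgeR) to 0.33. Over all alternatives that could be run, Thbs1 ranged from -1.38 to -1.13, Thbs2 from 4.30 to 4.74, Thbs3 from 0.28 to 0.46, Tnc from -2.23 to -1.89, Tnxb from 1.34 to 2.52, Tnn from 1.53 to 1.92 and Tnr from 3.15 to 3.56. With at least 10 counts in every library, Tnr and Tnxb were not tested, 3 genes were higher in KO, and 1 of 14 tested genes with type 1 repeats was lower, since fewer genes entered the test. Leaving out each library in turn left 2 to 4 genes past the stricter limit. Scaling by upper quartiles or by library totals left 2 genes past that limit. Library totals moved the median change over all tested genes, in log2, from 0.024 to 0.173. The calls over all genes went from 5335 higher and 5045 lower to 6628 and 3964. The deviations of the libraries numbered 1 correlated at -0.029, a value that cannot settle whether the replicate numbers pair the samples. With a replicate block, 5 members were higher and 2 lower, with Thbs2 at 4.53 and Tnc at -2.04. Among 40 other named genes, 462 of 477 values kept direction and call. Those that changed sign, none of them called with all libraries and TMM, were Crtc1 at 0.09 and Gm3222 at 0.08 with library totals and, over the libraries left out, C4b (-0.02 to 0.37), Crtc1 (-0.19 to 0.06), Gm3222 (-0.40 to 0.32) and Scarna3a (-0.03 to 0.92). Of the rest, 6 values lost a call (Atf6b and Fsip1) and 2 gained one (Mrps14 and Scarna3a). The causes were not tested. Gene totals cannot show which isoforms were counted, and the WT levels of Tnr and Tnxb rest on 7 to 15 counts.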
